A study of Homo sapiens with 12 samples.

Results

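The response described here is that of MDA-MB-231 cells to interferon-β. MDA-MB-231 is an established human triple-negative breast cancer line, a tumour type without oestrogen and progesterone receptors and without HER2 amplification. The 6 libraries of this line, of 12 RNA-seq libraries in the series, were chosen by their labels: 3 untreated libraries and 3 from cells given interferon-β at 400 IU/mL for 48 h. All 6 came from wild-type cells grown in DMEM with a low glucose content, fetal calf serum, penicillin and streptomycin. The other 6 libraries, used below only to test where the responses differed, were the same 2 groups in HCC38, another triple-negative line, grown in RPMI-1640, so a difference from it may lie in line or medium, which cannot be told apart. The labels call the libraries of a group biological replicates without saying that they came from separate cultures, so the p-values speak for the variation among these libraries alone, which may be technical in part.

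Interferon-β is a type I interferon. It binds a receptor of the chains IFNAR1 and IFNAR2, whose kinases JAK1 and TYK2 phosphorylate STAT2, which joins IRF9 in a complex that binds a DNA element present in the promoters of many antiviral genes. Those interferon-stimulated genes include RNA sensors, antiviral effectors and the machinery that presents peptides on MHC class I. Type I interferons also slow the growth of many cells, and less is established about the genes whose transcripts fall. The series title points to IRF3, to signalling under replication stress and to drugs that damage DNA.

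The libraries held 28757721 to 43588773 counts and 21599 to 23501 detected genes. Deposited file numbers 1 and 2 (untreated replicates 1 and 2, treated replicate 1) and 4 and 5 (untreated replicate 3, treated replicates 2 and 3) formed 2 sets. A chi-square comparison of counts, divided by its degrees of freedom, gave 5.34 and 11.5 between libraries of 1 group and 1 set, and 42.4 to 62.3 between libraries of 1 group from different sets. The treatment was therefore estimated with a term for the set, by edgeR's quasi-likelihood test on the deposited counts, and a gene was called at an adjusted p under 0.05 over all 15755 genes that passed a filter on low counts. Levels below are CPM, counts divided by each library's total after scaling by the trimmed mean of M-values (TMM), as in the test, with untreated replicates 1, 2 and 3 first and treated replicates 1, 2 and 3 after them. Whether the counting used strand is not given in the sources used here, so reads of a gene and of one annotated on its opposite strand cannot be told apart; 49 of 127 genes named below have such a neighbour, among them DANCR, LPP, NUDT3, BISPR, CCR1, REC8, COL15A1, PSMB8-AS1, OAS1, TRIM22, FAS, BCL2L11, VIM, AXL, SMC4, MRE11, CA9, SLC2A1, TNC and TCP1. Another gene overlaps 47 of the 127 on the same strand, where reads may be left out of the count.

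Several markers of the line were as its label has them. Among others expected to be low, ERBB2, which encodes HER2, was at 62.8 CPM untreated and 77.9 CPM treated. It was called higher (0.29, adjusted p = 0.00965), as were EPCAM, GATA3 and CDH1, each at means below 5 CPM. Mean levels in untreated and treated cells were 2923 and 2444 CPM for VIM, the mesenchymal filament vimentin, 998 and 1040 CPM for CD44, and 340 and 339 CPM for EGFR, while ESR1, the oestrogen receptor, had 9 counts and PGR, the progesterone receptor, none over the 6 libraries. Of 21 leukocyte markers, 19 lay below 1 CPM in every library and 8, among them CD3D and MS4A1, had no count; their summed level was 2.30 to 4.25 CPM in untreated and 4.12 to 4.86 CPM in treated libraries. Of 19 fibroblast and endothelial markers, 12 lay below 1 CPM in every library, CLDN5 and THY1 had no count, and the sums were 151 to 236 CPM untreated and 180 to 220 CPM treated. ENG and ESAM, at untreated means of 124 and 56.9 CPM, were the highest of these markers. In bulk RNA, fewer cells of a kind and less RNA per cell cannot be told apart.

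The response had 2 sides of nearly equal number and unequal size. Of the 15755 genes, 2169 rose (13.8%) and 2118 fell (13.4%), 27.2% in all, with 6120 at an unadjusted p under 0.05. The median log2 fold change was 0.50 among the genes that rose and -0.34 among those that fell, against 0.01 over all genes tested. A change of at least 2-fold was seen for 499 genes that rose and 71 that fell, and one of at least 4-fold for 144 and 2. The 144 include 4 genes with no count in any untreated library, whose fold has no measured base. Scaled to library totals instead of TMM factors, 3152 genes rose and 1254 fell, 71.5% higher against 50.6%, so the balance between the sides depends on the scaling.

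**Figure D1:**
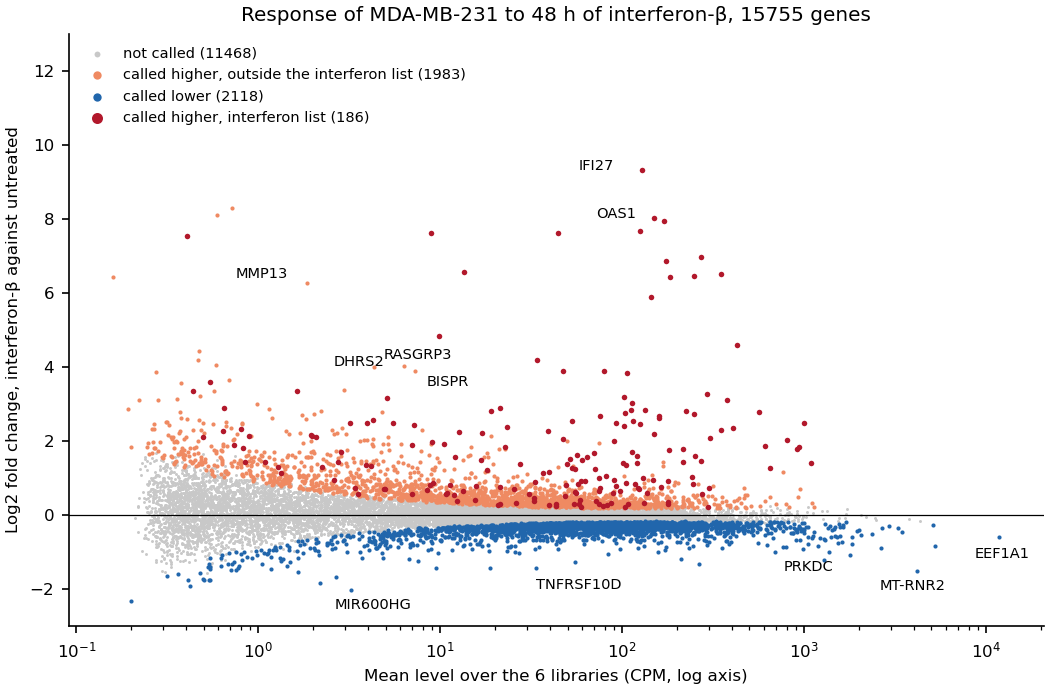
Log2 fold change after interferon-β (vertical axis) against the mean level over the 6 libraries (CPM, log axis), 1 point per gene for 15755 genes, coloured by call. Rises reach above 4 on the log2 scale at levels below 1000 CPM, while the 2118 falls form a shallow band. The share of genes that fell, not their number, grows towards abundant transcripts.

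Genes of the interferon-stimulated list, 302 symbols compiled from general knowledge of the pathway, were a small share of the rises: 186 of 258 tested members rose and 6 fell, which is 8.58% of all genes that rose. Outside the list 1983 genes rose, 383 of them at least 2-fold against 116 in the list. At 4-fold and more the list held 68 and the rest 76. The median log2 fold change of the 258 was 0.84. This list and the other gene lists below were chosen with earlier results of these data known. Their shares are therefore descriptive and not independent of the data.

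Falls were most frequent among abundant transcripts. Among the 69 genes at 1000 CPM or more, averaged over both groups, 48 fell (69.6%) and 3 rose. Between 100 and 1000 CPM 759 of 2512 fell (30.2%) and 336 rose (13.4%), and between 1 and 10 CPM 199 of 3630 fell (5.48%) and 589 rose (16.2%). Scaled to library totals, 44 of the 69 most abundant genes still fell, but between 100 and 1000 CPM 483 fell and 530 rose. On deposited FPKM, a unit that also divides by transcript length, 19 of the 69 fell and 2 rose.

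Of 20 genes of interferon signalling 10 rose, among them STAT2, IRF9 and IRF7, and none fell (4 rose without the set term), while the receptor chains were not called. STAT2 was at 64.7, 62.1 and 62.6 CPM in untreated and at 140, 197 and 198 CPM in treated libraries (log2 fold change 1.40 ± 0.10 SE, adjusted p = 3.56e-07). IRF9, read at few counts, went from 0.637, 0.325 and 0.774 to 1.29, 4.77 and 4.61 CPM (2.12 ± 0.32, adjusted p = 0.000385), with all treated libraries above all untreated ones; another gene overlaps it on the same strand, and its mean deposited FPKM was 10.7 untreated and 81.7 treated. IFNAR1 (-0.16 ± 0.08, adjusted p = 0.147) and IFNAR2 (0.20 ± 0.11, adjusted p = 0.214) were not called, nor were JAK1 (-0.17, adjusted p = 0.0555) and TYK2 (0.20, adjusted p = 0.0724). IRF3, the factor in the title, was at 49.8, 48.6 and 48.2 CPM untreated and 51.6, 62.3 and 75.7 CPM treated (0.30 ± 0.10, adjusted p = 0.0491), a call lost under 13 of 20 other settings. In HCC38 the same contrast for IRF3 gave -0.12 (adjusted p = 0.557), and the difference between the lines was not called (adjusted p = 0.0886). IRF7, which sustains type I interferon production, rose from 7.08, 7.02 and 4.79 to 85.3, 81.5 and 98.0 CPM (3.88 ± 0.13, adjusted p = 1.12e-10).

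The largest rises of the list were nearly silent without treatment. IFI27, an interferon-induced membrane protein, was at 0.460, 0.384 and 0.338 CPM untreated and at 242, 250 and 272 CPM treated (9.33 ± 0.12, adjusted p = 4.91e-15). OAS1, which makes the activator of RNase L, IFI44L, IFITM1, which blocks viral entry, TRIM22 and HSH2D followed at 8.01, 7.93, 7.66, 7.62 and 7.60, each with all 3 treated libraries above all 3 untreated ones. The choice of these genes required that order within each set. MX1, an antiviral GTPase, rose by 6.86 ± 0.11 (adjusted p = 3.91e-14). IFIT1 and IFIT3, which bind viral RNA, rose less in the second set (2.49 and 1.45) than in the first (3.74 and 2.28), and untreated replicate 3 was their highest untreated library. IFIT1 was at 38.5, 36.7 and 137 CPM untreated and at 504, 792 and 756 CPM treated, and its response differed between the sets (adjusted p = 8.55e-06).

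Most genes of antigen presentation rose. Of 22 genes of MHC class I presentation 19 rose and 1 fell (median 1.09). HLA-B, a class I heavy chain, went from 335, 330 and 261 to 1523, 1661 and 1836 CPM (2.47 ± 0.11, adjusted p = 1.87e-09), TAP1, which carries peptides into the endoplasmic reticulum, rose by 2.40 and PSMB9, a subunit of the immunoproteasome, by 2.80. CANX, the chaperone calnexin, fell (-0.52 ± 0.06, adjusted p = 5.6e-05), and its response differed from HCC38 (0.07 there; difference -0.59, adjusted p = 0.000248). Of 8 class II genes 7 rose at low levels, CD74, the invariant chain, from 1.73, 2.01 and 0.653 to 8.13, 5.59 and 5.72 CPM (2.49 ± 0.21, adjusted p = 3.31e-06).

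The element bound by the complex of STAT2 and IRF9 has the core GAAANNGAAA. Promoter windows of 300 bases (250 before and 50 after an annotated start, RefSeq, GRCh38.p14) are shown for 2 of the largest rises of the list and for PSMB8-AS1, a noncoding RNA outside it that rose by 2.04 ± 0.17 (adjusted p = 2.88e-06), with each match of the core on either strand in capitals. PSMB8-AS1 overlaps PSMB9 on the same strand and PSMB8 and TAP1 on the opposite strand, so its counts are uncertain. PSMB9 and TAP1 rose too, and whether the rise of PSMB8-AS1 or the match in its window belongs to a neighbour was not tested. The windows are chr14:94110486-94110785 for the first of 2 IFI27 starts, chr11:313790-314089 for IFITM1 and chr6:32843836-32844135 for PSMB8-AS1, all on the plus strand.
IFI27: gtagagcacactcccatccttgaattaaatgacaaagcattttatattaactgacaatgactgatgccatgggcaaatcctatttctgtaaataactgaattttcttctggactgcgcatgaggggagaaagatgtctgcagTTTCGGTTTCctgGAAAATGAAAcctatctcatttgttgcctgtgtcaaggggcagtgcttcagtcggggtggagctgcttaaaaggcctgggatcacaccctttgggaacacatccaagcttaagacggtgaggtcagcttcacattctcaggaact
IFITM1: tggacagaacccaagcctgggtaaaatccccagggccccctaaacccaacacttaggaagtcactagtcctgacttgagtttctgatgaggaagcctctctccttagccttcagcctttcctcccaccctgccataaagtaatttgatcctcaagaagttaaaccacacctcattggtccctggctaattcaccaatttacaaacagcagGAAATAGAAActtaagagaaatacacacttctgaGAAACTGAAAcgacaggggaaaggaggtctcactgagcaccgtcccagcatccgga
PSMB8-AS1: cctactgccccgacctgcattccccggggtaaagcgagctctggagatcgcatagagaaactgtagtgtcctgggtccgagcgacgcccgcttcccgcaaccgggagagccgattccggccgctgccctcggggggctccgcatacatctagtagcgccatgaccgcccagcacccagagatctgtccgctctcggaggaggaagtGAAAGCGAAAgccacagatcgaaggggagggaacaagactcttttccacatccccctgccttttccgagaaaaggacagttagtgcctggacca

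The core was found far more often in front of risen genes of the list than in front of the other groups. Of 11203 tested genes matched to a promoter in the table, 455 (4.06%) had it in at least 1 window, and 3.57% of all 35116 windows did. It was found for 64 of 136 risen genes of the list (47.1%), for 60 of 1431 risen genes outside it (4.19%) and for 49 of 1644 genes that fell (2.98%). Among genes outside the list that rose at least 2-fold the share was 13 of 212 (6.13%). A second motif, TTCNNNGAA, which STAT dimers bind and whose matches may overlap those of the first, was found for 19.1%, 8.6% and 8.39% of the same 3 groups and for 8.54% of all tested genes. A match is a run of letters in this window and not a measured binding site.

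The genes that fell most were a receptor for a death ligand, noncoding RNAs and mitochondrial transcripts. TNFRSF10D, a decoy receptor that binds the death ligand TRAIL without a complete death domain, was at 58.5, 59.8 and 35.0 CPM untreated and at 19.7, 13.9 and 14.4 CPM treated (-1.45 ± 0.09, adjusted p = 7.5e-08). Every treated library lay below every untreated one, as for 14.8% of all genes tested. The log2 fold changes in the sets were -1.59 and -1.31. The largest falls were chosen to hold this order within each set, so the order is no further support. TNFRSF10D also fell in HCC38 (-0.73, adjusted p = 6.92e-05), by less than in MDA-MB-231 (difference -0.71, adjusted p = 0.00323). It was the only one of 39 tested members of the cell death list that fell.

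The list of largest falls held 3 long noncoding RNAs. DANCR, on chromosome 4 from 52712325 to 52723623 on the plus strand, was at 23.4, 27.9 and 30.5 CPM untreated and at 11.3, 9.82 and 9.47 CPM treated (-1.43 ± 0.12, adjusted p = 2.23e-06). LINC01963, on chromosome 2 from 216217045 to 216220192, went from 13.8, 14.9 and 13.4 to 6.21, 4.16 and 4.42 CPM (-1.43 ± 0.13, adjusted p = 4.33e-06). MIR600HG, the host transcript of miR-600 within STRBP on the same strand, went from 4.25, 5.37 and 5.63 to 0.945, 1.96 and 1.31 CPM (-2.02 ± 0.22, adjusted p = 3.4e-05). In none of them did the groups overlap, an order that their choice required within each set. All 3 fell in HCC38 too, by 0.71, 0.69 and 1.00 on the log2 scale, and each fell further in MDA-MB-231 (adjusted p = 0.0174, 0.011 and 0.0312 for the difference). They were chosen for large falls in the same MDA-MB-231 libraries, which favours such a difference.

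Other nuclear protein-coding genes among the largest falls were NUDT3, SAMD5 and LPP. NUDT3, which hydrolyses diphosphoinositol polyphosphates, was at 87.5, 86.1 and 67.6 CPM untreated and at 40.3, 23.6 and 25.8 CPM treated (-1.28 ± 0.08, adjusted p = 1.73e-07); it overlaps the readthrough gene RPS10-NUDT3 on the same strand, so its counts are uncertain. LPP, a LIM-domain protein of focal adhesions, went from 101, 109 and 127 to 61.0, 53.1 and 49.1 CPM (-1.05 ± 0.10, adjusted p = 6.88e-06). Its log2 fold change was -0.79 in the first set and -1.32 in the second, a difference that was called. SAMD5 went from 5.31, 5.14 and 4.93 to 2.4, 2.2 and 2.15 CPM (-1.15 ± 0.16, adjusted p = 0.000241) and was not called in HCC38 (0.32, adjusted p = 0.817), where its untreated mean was 0.139 CPM; the difference between the lines was not called (adjusted p = 0.183). PRKDC, the catalytic subunit of the DNA-dependent protein kinase, stood at 755, 795 and 1202 CPM untreated and 497, 491 and 430 CPM treated (-1.01 ± 0.12, adjusted p = 6.62e-05). Its fall was larger in the second set (-1.40) than in the first (-0.65), a difference that was called (adjusted p = 0.00476), and untreated replicate 3 was its highest library. On log2(FPKM + 1) by limma neither LPP (-0.23, adjusted p = 0.457) nor PRKDC (-0.95, adjusted p = 0.0533) was called.

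ZMAT3, a p53 target that binds RNA, went from 35.1, 40.6 and 34.2 to 19.2, 17.2 and 15.7 CPM (-1.02 ± 0.09, adjusted p = 3.88e-06). Of 29 p53 targets 4 rose (13.8%) and 3 fell (10.3%), near the shares of all genes, with 2 rises without untreated replicate 3 and 7 rises and 5 falls without treated replicate 1. They included CDKN1A, the cell cycle inhibitor p21 (0.63 ± 0.11, adjusted p = 0.00105), and MDM2 at -0.35 (adjusted p = 0.00624). CDKN1A gave 0.33 in the first set and 0.91 in the second. The processed pseudogenes RPL7P9 (-1.19) and RPS3AP26 (-1.17) stood among the largest falls, but their sequence is close to that of RPL7 and RPS3A, which fell too, so the reads may belong to the parent genes.

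**Figure D2:**
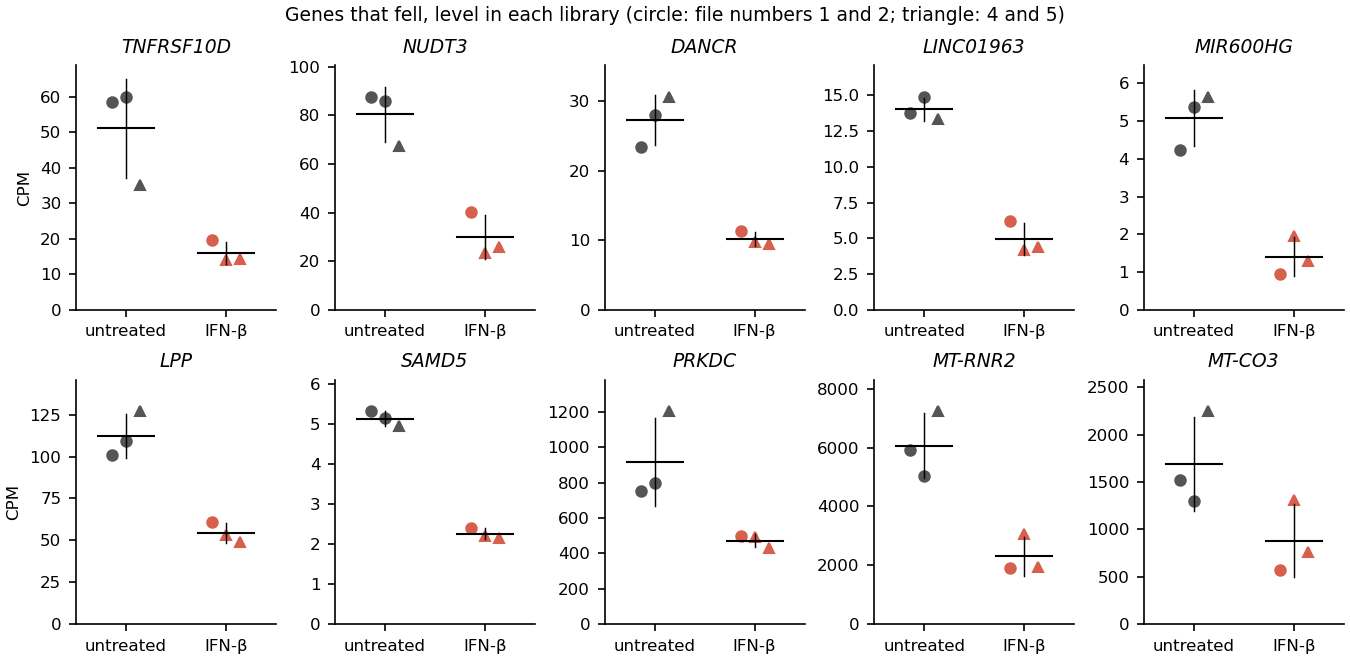
Level (CPM, axis from 0) of 10 genes that fell, 1 panel per gene, in the 3 untreated and 3 treated libraries, with the mean (horizontal line) and SD (vertical line). The groups are apart in 9 panels, and in MT-CO3 treated replicate 2 (1310 CPM) reaches the lowest untreated library (1301 CPM). The genes other than PRKDC were chosen to be ordered within each set.

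Transcripts of the mitochondrial genome, which encode subunits of the respiratory chain and the 2 mitochondrial rRNAs, were lower after treatment within each set. Of 13 protein-coding transcripts tested 12 fell and none rose, with a median of -0.89. MT-RNR2, the large mitochondrial rRNA, was at 5933, 5021 and 7231 CPM untreated and 1899, 3073 and 1951 CPM treated (-1.53 ± 0.13, adjusted p = 3.89e-06), and MT-RNR1 fell by 1.33 on the log2 scale (adjusted p = 1.29e-05). MT-CO3, a subunit of cytochrome c oxidase, was at 1525, 1301 and 2245 CPM untreated and 574, 1310 and 757 CPM treated (-1.21 ± 0.16, adjusted p = 0.000123). MT-ATP8 (-1.20) and MT-ATP6 (-1.08), subunits of ATP synthase, overlap each other and MT-CO3 on the genome and moved alike. The rRNAs kept the groups apart, but 12 of the 13 protein-coding transcripts overlapped, all but MT-ND6, a subunit of complex I (-0.94 ± 0.13, adjusted p = 0.00016). The summed level of the 13 was 19192, 15724 and 28064 CPM untreated and 8461, 21444 and 12512 CPM treated.

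The share of all counts from the mitochondrial genome was 2.50%, 2.07% and 3.39% untreated and 1.07%, 2.53% and 1.51% treated. Without the set term none of the 13 was called, and none on log2(FPKM + 1), although the medians stayed below 0 (-0.57 and -0.83). Whether RNA quality or library preparation had a part in this share was not tested. The mitochondrial transcripts also fell in HCC38 (8 of 13, median -0.64), and 1 of the 13 differed between the lines. The nuclear genes of the respiratory chain did not follow: 7 of 57 fell and 1 rose, a share of falls (12.3%) near that of all genes, and their median was 0.02 in the first set and -0.22 in the second. Without treated replicate 1, 22 of them fell, and without untreated replicate 3 or treated replicate 2, 4 did.

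The components of protein synthesis fell as a broad group by small amounts. Of 79 cytosolic ribosomal protein genes 46 fell (58.2%, against 13.4% of all genes) and none rose, with a median of -0.34. Many of these genes are abundant, and 30.2% of all genes at 100 to 1000 CPM and 69.6% at 1000 CPM or more fell. Neither this share nor those of the lists below was matched for level. RPL7 was at 1303, 1292 and 1309 CPM untreated and at 737, 649 and 640 CPM treated (-0.92 ± 0.07, adjusted p = 5.29e-07), RPS3A at 1002, 1021 and 970 CPM and then 583, 518 and 485 CPM (-0.87 ± 0.07, adjusted p = 8.37e-07), and RPLP0, a stalk protein often used as a reference gene, at 2464, 2457 and 2143 CPM and then 1443, 1199 and 1252 CPM (-0.79 ± 0.06, adjusted p = 1.22e-06). The 3 treated libraries lay below the 3 untreated ones in each. The summed level of the 79 was 41587, 45531 and 42025 CPM untreated and 33850, 28063 and 28507 CPM treated. The median was -0.19 in the first set and -0.54 in the second.

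Factors of initiation and elongation fell likewise: 29 of 46, with none higher and a median of -0.28. EEF1A1, the elongation factor that carries tRNA to the ribosome and the most abundant of them, was at 16737, 16371 and 11452 CPM untreated and at 10479, 7895 and 7974 CPM treated (-0.59 ± 0.06, adjusted p = 2.74e-05). EIF4B, an activator of the cap-binding helicase, fell by 0.82, EEF1B2 by 0.79 and PABPC1, the poly(A)-binding protein, by 0.76 on the log2 scale. Of 21 cytosolic aminoacyl-tRNA synthetases, which charge tRNA with amino acids, 16 fell and none rose (median -0.32). LARS1 went from 393, 382 and 360 to 249, 183 and 177 CPM (-0.82 ± 0.08, adjusted p = 7.8e-06), and IARS1 and EPRS1 fell by 0.75 and 0.70. Of 71 genes of ribosome assembly 32 fell and none rose (median -0.18), led by GNL3L (-0.89 ± 0.08, adjusted p = 3.48e-06), NOL9 (-0.57) and POLR1E, a subunit of RNA polymerase I (-0.54).

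These counts depended on the settings. Without the set term 23 ribosomal proteins, 16 factors, 6 synthetases and 7 assembly genes fell, on log2(FPKM + 1) 37, 11, 3 and 5, and with library totals 38, 23, 15 and 23, with 1 assembly gene higher in the last. Without untreated replicate 3, 15 assembly genes fell, and without treated replicate 2, 20 did. Over all genes the falls numbered 464 without the set term, 232 on log2(FPKM + 1) and 1254 with library totals, against 2118. They numbered 1185 without untreated replicate 3 and 1339 without treated replicate 2. The same totals stand behind the counts of falls in the lists below. The median of each of the 4 lists was below 0 in all 20 settings run.

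The 4 lists differed in how they compared with HCC38. Ribosomal protein genes fell there as well (67 of 79, median -0.46), and the response differed between the lines for 7 of them. Of 46 factors 10 fell and 3 rose in HCC38, a larger share of falls than the 4.75% of all genes there, while 1 of 21 synthetases and 3 of 71 assembly genes fell, shares near it. The difference between the lines was called, with MDA-MB-231 below HCC38, for 16 factors, 14 synthetases and 34 assembly genes, and with it above for none. LARS1 gave -0.04 (adjusted p = 0.825) in HCC38 and a difference of -0.78 (adjusted p = 8.38e-05).

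Transcripts of the translation machinery often begin with C and a run of pyrimidines, a feature through which growth signals set their translation. The first 30 bases of annotated transcripts (RefSeq, GRCh38.p14) are shown for members that fell and, for contrast, for NUDT3, with the unbroken pyrimidine run from the first base in capitals where it begins with C and reaches at least 5 bases. They lie at chr6:73521003-73521032 (minus strand) for EEF1A1, chr2:206159895-206159924 (plus) for the second of 2 annotated EEF1B2 starts, chr12:53006456-53006485 (plus) for EIF4B, chr4:151099628-151099657 (plus) for RPS3A, chr12:120201082-120201111 (minus) for RPLP0 and chr6:34392640-34392669 (minus) for NUDT3. The first EEF1B2 start, not shown, has no such run.
EEF1A1: CTTTTTCgcaacgggtttgccgccagaaca
EEF1B2: CCTTTTTCCTCTCTTCagcgtggggcgccc
EIF4B: CTTTTgcgttctctttccctctcccaacat
RPS3A: CCCTTTTggctctctgaccagcaccatggc
RPLP0: CCTTCTCTCgccaggcgtcctcgtggaagg
NUDT3: acgccgctgacgcatcgcgcccaagatggc

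Such a start was annotated for 47 of 63 matched ribosomal protein genes (74.6%), 10 of 36 factors (27.8%) and 806 of all 11203 matched genes (7.19%). It was found for 182 of 1644 genes that fell (11.1%) and for 91 of 1431 risen genes outside the interferon list (6.36%). Read the other way, 22.6% of the 806 genes with the start fell, against 14.1% of the 10397 without it. With both lists left out the shares were 19.6% of 749 and 13.9% of 10355. Among the ribosomal proteins 27 of 47 with it and 9 of 16 without it fell (57.4% and 56.2%). A single base of error in an annotated start changes this reading, and no start was measured here.

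Host genes of small nucleolar RNAs, chosen after their values were seen, changed in part. Of 22 tested, 5 fell (SNHG1, SNHG3, SNHG4, SNHG16 and SNHG29) and SNHG18 rose, with a median of -0.03. SNHG16 was at 111, 118 and 121 CPM untreated and 78.6, 71.7 and 81.4 CPM treated (-0.60 ± 0.07, adjusted p = 5.66e-05). Several of them span small RNA genes on the same strand, so their counts are uncertain.

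Genes of nuclear transport, which move proteins and RNA through the nuclear pore, fell in the same small steps. Of 47 tested 29 fell (61.7%) and none rose, with a median of -0.23 (-0.15 and -0.34 in the sets). IPO5, an importin that carries ribosomal proteins, was at 765, 747 and 917 CPM untreated and 519, 557 and 556 CPM treated (-0.63 ± 0.06, adjusted p = 1.61e-05). XPOT, which exports tRNA, fell by 0.57 and NUP155, a pore scaffold protein, by 0.54. In HCC38 none of the 47 fell and 3 rose, and 22 differed between the lines, all lower in MDA-MB-231. Without the set term 2 of the 47 fell, with library totals 18 did, without untreated replicate 3, 14 did and without treated replicate 2, 18 did.

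Chaperones, which fold newly made proteins, fell for 16 of 29 members (55.2%) and rose for 4 (13.8%). Over all genes 13.4% fell and 13.8% rose. HSPA8, the constitutive HSP70, was at 2319, 2351 and 2229 CPM untreated and 1763, 1700 and 1651 CPM treated (-0.41 ± 0.06, adjusted p = 0.000379), and TCP1, of the ring that folds actin and tubulin, fell by 0.39 on the log2 scale. HSPB1 (0.52) and BAG3 (0.33) rose. In the stress response list 12 of 36 fell (33.3%) and 5 rose (13.9%, near the share of all genes). PSAT1, of serine synthesis, went from 261, 254 and 190 to 152, 97.7 and 94.2 CPM (-0.87 ± 0.07, adjusted p = 1.23e-06). HERPUD1, a target of the unfolded protein response, was called lower (-0.67 ± 0.22, adjusted p = 0.0378), but its estimate was 0.07 in the first set and -1.43 in the second: it was at 76.5 and 57.0 against 69.9 CPM in the first and at 92.2 against 34.4 and 34.5 CPM in the second. With library totals 7 chaperones and 7 stress genes fell, without the set term 1 of each, without untreated replicate 3, 6 of each, and without treated replicate 2, 8 and 7; without treated replicate 3, 7 stress genes fell, and without untreated replicate 2, 3 stress genes rose.

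Genes of DNA replication and the G1/S transition fell for 33 of 60 members and rose for 1, CCND3, with a median of -0.23 that was alike in the sets (-0.24 and -0.25). GINS4, a subunit of the replicative helicase complex, went from 21.4, 22.1 and 27.6 to 10.5, 14.8 and 14.2 CPM (-0.98 ± 0.09, adjusted p = 6.77e-06), and HELLS, a chromatin remodeller of S phase, fell by 0.79. All treated libraries lay below all untreated ones for both. In HCC38 3 of the 60 fell and 8 rose, and 32 differed between the lines, all with the MDA-MB-231 response below that of HCC38. Without treated replicate 2, 21 of the 60 fell.

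DNA repair and checkpoint genes held fewer falls. Of 29 genes of end joining 10 fell and 1 rose, POLQ (0.42), the polymerase of the alternative pathway. Beside PRKDC, the Ku subunit XRCC5 went from 687, 684 and 871 to 544, 576 and 555 CPM (-0.48 ± 0.07, adjusted p = 0.000393) and NHEJ1 fell by 0.77 (adjusted p = 0.00113). Of 34 genes of the replication stress response 12 fell and 1 rose. ATR, its apical kinase, fell by 0.36 (adjusted p = 0.00281) and CLSPN, which brings CHK1 to ATR, by 0.41 (adjusted p = 0.000671), both with overlapping groups. CHEK1, which encodes CHK1, was at 81.3, 77.4 and 92.8 CPM untreated and 71.3, 78.0 and 77.1 CPM treated (-0.21 ± 0.06, adjusted p = 0.0297), a call lost under 12 of 20 other settings. Of 40 genes of recombination and of the Fanconi anaemia pathway 10 fell, among them MRE11 (-0.45) and XRCC2 (-0.56), and 2 rose.

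Mitotic genes stood apart from these in their dependence on the set. Of 54 G2/M genes 21 fell and none rose (median -0.18), led by the condensin subunits SMC2 (-0.66) and SMC4 (-0.47) and the kinesin CENPE (-0.44), but in 1 of the 54 alone, SMC2, did all treated libraries lie below all untreated ones. Without untreated replicate 3, 7 fell, without treated replicates 1, 2 and 3 in turn, 41, 10 and 13. The median was -0.04 in the first set and -0.30 in the second, and it was above 0 (0.02) without the set term. CENPE was at 222 and 216 against 199 CPM in the first set and at 424 against 260 and 247 CPM in the second, and its response differed between them (adjusted p = 0.00919). Untreated replicate 3 was the highest library for SMC2, SMC4 and CENPE. Without the set term 5 genes of DNA replication, 3 of end joining and none of the replication stress, recombination or G2/M lists fell, and with library totals 18, 8, 6, 6 and 10 did. Without untreated replicate 3 or treated replicate 2, 6 replication stress genes fell, and without treated replicate 3, 6 recombination genes did.

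The largest rises outside the interferon list, among genes with a mean of at least 5 CPM in treated cells, were those of a dehydrogenase, a RAS activator and a noncoding RNA. DHRS2, a short-chain dehydrogenase, was at 0.0354, 0.295 and 1.31 CPM untreated and at 6.87, 14.3 and 15.1 CPM treated (4.03 ± 0.30, adjusted p = 6.21e-07), and it rose in HCC38 too (3.02, adjusted p = 1.33e-09). RASGRP3, an exchange factor that activates RAS and RAP proteins, went from 0.212, 0.266 and 0.701 to 4.61, 10.7 and 9.35 CPM (3.99 ± 0.21, adjusted p = 1.78e-08). BISPR, a noncoding RNA named for its link to the antiviral gene BST2, on chromosome 19 from 17405686 to 17419324, went from 1.73, 1.42 and 0.411 to 17.8, 10.8 and 11.2 CPM (3.88 ± 0.21, adjusted p = 1.78e-08). It overlaps other genes on both strands, so part of its counts is uncertain.

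The next were receptors and a meiotic protein. CCR1, a receptor of inflammatory chemokines, was at 2.26, 2.07 and 0.459 CPM untreated and 10.0, 6.36 and 7.50 CPM treated (2.77 ± 0.27, adjusted p = 8.54e-06). Its response was 2.21 in the first set and 3.90 in the second, where the only untreated library was the lowest, and the difference between the sets was called (1.70, adjusted p = 0.045). GLP2R, the receptor of an intestinal peptide hormone, went from 3.22, 2.27 and 2.06 to 9.05, 15 and 15.9 CPM (2.29 ± 0.22, adjusted p = 1.01e-05) and gave -0.06 in HCC38 (difference 2.35, adjusted p = 5.28e-05). REC8, a cohesin subunit of meiosis, went from 0.991, 0.974 and 0.895 to 3.03, 6.26 and 6.04 CPM (2.2 ± 0.25, adjusted p = 4.91e-05), but was not called on log2(FPKM + 1) by limma (0.79, adjusted p = 0.128). In each of them the treated libraries lay above the untreated ones, as for 15.1% of all genes tested. The choice of the largest rises required this order within each set.

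MDK, the heparin-binding growth factor midkine, on chromosome 11 from 46380756 to 46383837, went from 7.79, 8.65 and 5.66 to 29, 29.6 and 32.7 CPM (2.12 ± 0.14, adjusted p = 1.48e-07). In HCC38, where its untreated mean was 321 CPM, it was not called (adjusted p = 0.995), and the difference of 2.12 was called (adjusted p = 1.13e-08). CLEC2B, a ligand of a natural killer cell receptor, rose by 2.03 ± 0.18 (adjusted p = 4.46e-06), TRANK1 by 1.94 ± 0.09 (adjusted p = 2.77e-09) and COL15A1, a basement membrane collagen, by 1.92 ± 0.18 (adjusted p = 7.96e-06), the last not called on log2(FPKM + 1) by limma (0.76, adjusted p = 0.127). ANXA8L1 rose by 2.10 (adjusted p = 1.11e-06), but it has near-identical copies that can share its reads.

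**Figure D3:**
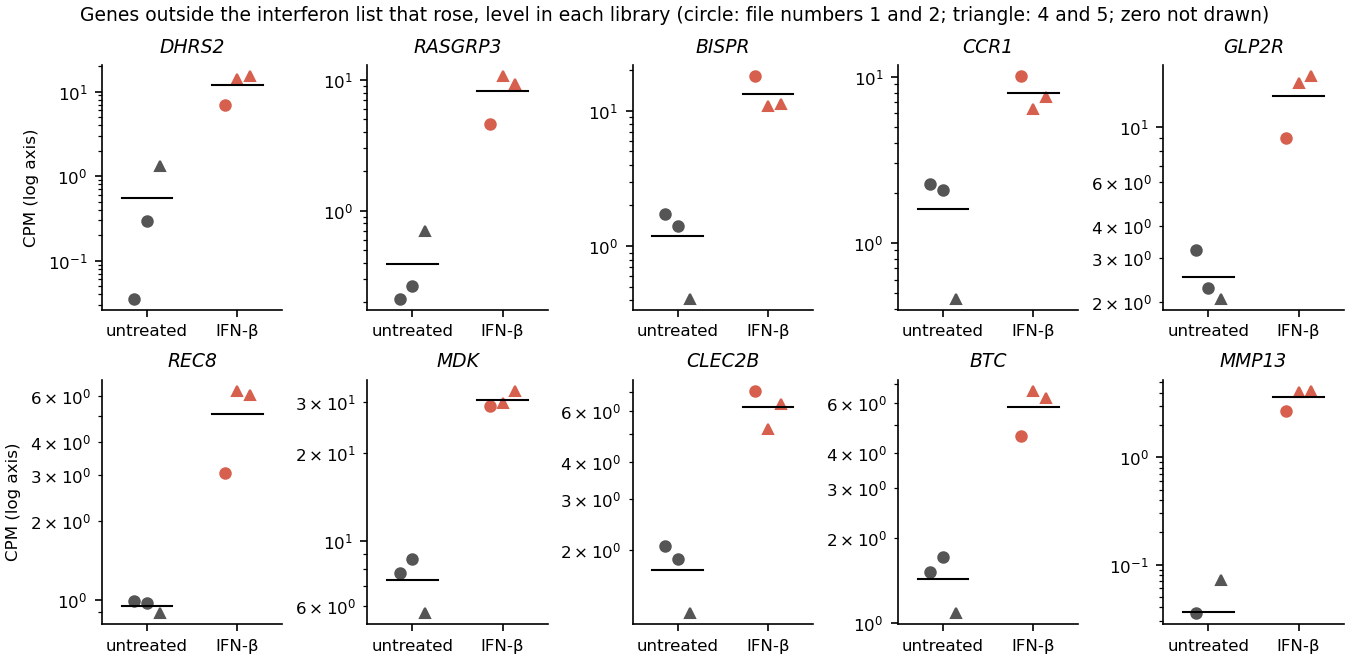
Level (CPM, log axis) of 10 genes outside the interferon list that rose, 1 panel per gene, in the 3 untreated and 3 treated libraries, with the mean as a line. In all 10 panels the lowest treated library lies above the highest untreated one. The genes other than MMP13 were chosen to be ordered within each set. For MMP13 an untreated library with no count is not drawn.

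Several groups outside the antiviral programme rose. Of 26 NF-κB targets 15 rose and none fell (median 0.31). IL6, an inflammatory cytokine, went from 7.08, 7.38 and 7.30 to 25.1, 18.8 and 19.2 CPM (1.59 ± 0.11, adjusted p = 4.44e-07). CXCL1, a neutrophil chemokine, was called higher (1.09 ± 0.26, adjusted p = 0.00726), but its groups overlapped, at 3.33, 4.10 and 1.96 CPM untreated and 12.1, 2.17 and 2.22 CPM treated. Of 46 genes of the extracellular matrix 26 rose (56.5%) and 3 fell (median 0.26). COL4A6 rose by 1.03 ± 0.18 (adjusted p = 0.00124) and LAMA1, a laminin chain, by 0.84 ± 0.13 (adjusted p = 0.000527), while TNC, tenascin C, fell from 252, 249 and 227 to 196, 177 and 170 CPM (-0.37 ± 0.06, adjusted p = 0.00071). Without the set term 2 NF-κB targets and 6 matrix genes rose. Without treated replicate 1, 9 NF-κB targets did, and without untreated replicates 2 and 3 in turn, 17 and 14 matrix genes did. Over all genes the rises numbered 571, 2546, 1593 and 999 in these settings in that order, against 2169.

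Of 25 growth factors and receptors of the EGF, FGF and other families 10 rose and 1, FGF5, fell. Of the 6 ligands of EGF receptors tested among them, a group taken out after the values were seen, 5 rose (BTC, EGF, AREG, EREG and TGFA) and HBEGF was not called (0.02, adjusted p = 0.848). BTC went from 1.52, 1.71 and 1.09 to 4.58, 6.64 and 6.27 CPM (1.99 ± 0.23, adjusted p = 5.09e-05), EGF from 1.42, 0.767 and 2.18 to 3.32, 6.57 and 5.65 CPM (1.55 ± 0.22, adjusted p = 0.000236) and AREG, amphiregulin, from 3.50, 3.69 and 3.68 to 8.27, 11.3 and 9.25 CPM (1.34 ± 0.15, adjusted p = 2.98e-05). EGFR itself gave -0.05 (adjusted p = 0.608). BTC and AREG rose in HCC38 as well, and EGF did not (0.07, adjusted p = 0.823; difference 1.47, adjusted p = 0.000527).

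Histone genes and genes of glucose use held more rises than falls. Of 19 histone genes 10 rose and 1 fell (median 1.00). H2AC6 went from 25.4, 26.5 and 15.4 to 100, 66.9 and 63.4 CPM (2.01 ± 0.07, adjusted p = 3e-10) and H2BC5 rose by 1.56 (adjusted p = 8.04e-08). In HCC38 12 of the 19 rose, and 8 rose further in MDA-MB-231. Of 40 genes of glycolysis and hypoxia 14 rose and 6 fell (8 rose without untreated replicate 3, 5 without the set term). The share of falls, 15%, was near the 13.4% of all genes. SLC2A1, the glucose transporter GLUT1, went from 703, 710 and 738 to 1139, 1131 and 1243 CPM (0.69 ± 0.06, adjusted p = 7.15e-06) and CA9, a carbonic anhydrase induced by hypoxia, rose by 1.20 ± 0.12 (adjusted p = 1.83e-05). LDHB, a lactate dehydrogenase subunit, fell from 34.6, 32.4 and 33.9 to 21.6, 19.8 and 20.5 CPM (-0.69 ± 0.08, adjusted p = 5.67e-05). Another gene overlaps LDHB on the same strand, and its mean deposited FPKM, 872 untreated and 674 treated, is high beside these counts, with a smaller ratio between the groups.

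The called proteases rose, and adhesion molecules and mesenchymal genes moved in both directions. MMP13, a collagenase, was near 0 untreated (0.0354, 0 and 0.0725 CPM) and at 2.72, 4.06 and 4.19 CPM treated (6.28 ± 0.42, adjusted p = 2.48e-07), and 9 of 33 proteases rose with none lower. VIM fell by 0.34 on the log2 scale (adjusted p = 0.0015), AXL, a receptor kinase of invasive cells, by 0.43 (adjusted p = 0.000405) and MSN, moesin, by 0.48 (adjusted p = 0.000124), while VIM and AXL rose in HCC38 (0.37 and 0.82), and the difference was called for both. CDH1, the epithelial cadherin, was at 0, 0 and 0.0725 CPM untreated and 0.429, 0.677 and 0.469 CPM treated (adjusted p = 0.00233), a level that stayed below 1 CPM. NNMT, nicotinamide N-methyltransferase, rose from 21.1, 24.8 and 24.2 to 41.6, 52.3 and 52.4 CPM (0.99 ± 0.09, adjusted p = 5.72e-06). Of 23 genes of epithelial-mesenchymal transition 8 rose (34.8%) and 3 fell (13%, near the 13.4% of all genes), and 5 rose without untreated replicate 3.

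Of the cell death list, 12 of 39 rose, 7 without untreated replicate 3. FAS, a death receptor, rose by 1.30 ± 0.27 (adjusted p = 0.00337), CASP1, the inflammasome caspase, by 1.56 ± 0.12 (adjusted p = 1.55e-06) and BCL2L11, which encodes the BH3-only protein BIM, from 10.4, 10.4 and 13 to 17.5, 27.9 and 26.5 CPM (0.91 ± 0.10, adjusted p = 4.36e-05). Among immune ligands LGALS9, galectin-9, rose from 0.354, 0.177 and 0.145 to 11.7, 31.4 and 37.6 CPM (6.56 ± 0.29, adjusted p = 2.77e-09) and PDCD1LG2, the PD-1 ligand PD-L2, rose by 1.33 ± 0.22 (adjusted p = 0.00073). NT5E, which makes adenosine at the cell surface, was at 629, 599 and 503 CPM untreated and 493, 560 and 514 CPM treated (-0.11 ± 0.09, adjusted p = 0.372), against a rise of 2.92 in HCC38 (difference -3.03, adjusted p = 1.08e-11).

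**Figure D4:**
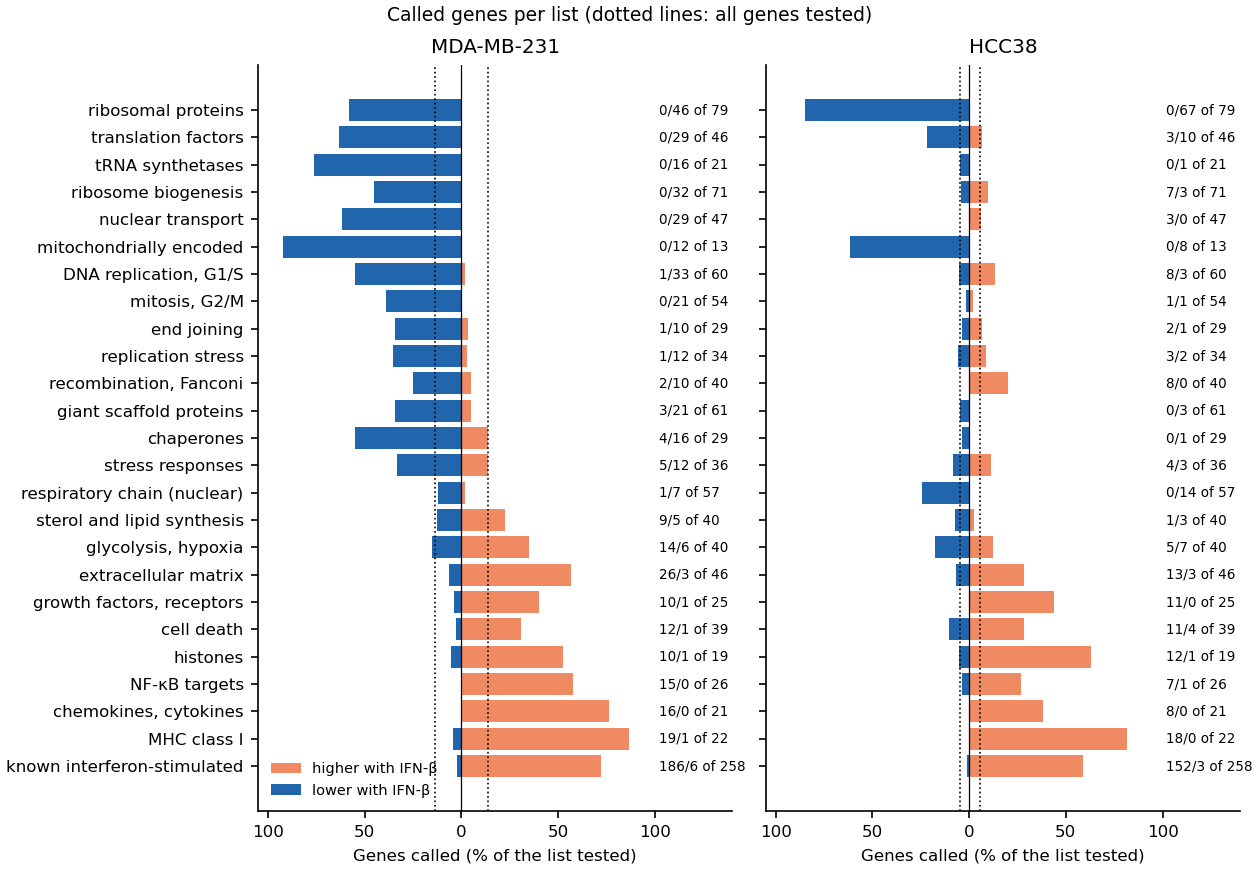
Share of tested members called higher (orange, to the right) and lower (blue, to the left) in 25 gene lists, in MDA-MB-231 and in HCC38, with the counts higher/lower of tested beside each bar and the share of all genes as dotted lines. The lists of protein synthesis, nuclear transport and replication fall in MDA-MB-231, and of the protein synthesis lists the ribosomal proteins and, for 10 of 46, the translation factors also fall in HCC38 beyond the share of all genes.

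Other lists held called members in both directions. Over all genes 13.8% rose and 13.4% fell. Of 31 integrin and adhesion genes 5 rose and 7 fell, of 40 sterol and lipid genes 9 and 5, of 31 Wnt genes 7 and 2, and of 48 axon guidance genes 11 and 1. The adhesion rises (16.1%) and sterol falls (12.5%) were near the shares of all genes. The Wnt falls (6.45%) and axon guidance falls (2.08%) were below them, and the other shares of these lists were above. Without untreated replicate 3 the rises numbered 3, 13, 4 and 4 in these lists, and 1 sterol gene fell. Without treated replicate 1, 8 adhesion genes rose, 11 sterol and 6 Wnt genes fell, without treated replicate 2 or 3, 3 sterol genes fell, and without untreated replicate 2, 7 axon guidance genes rose. Of 15 genes often used as references 2 rose (13.3%), B2M (1.41) among them, and 4 fell (26.7%), among them PPIA (-0.34) and TFRC (-0.48).

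The genes that fell differed from those that rose in length and class. The median length of the longest annotated transcript was 4654 bases for the 1959 protein-coding genes that fell, 3481 bases for the 1899 that rose and 3747.5 bases for all 12810 tested. Median levels were 77.9, 28.1 and 32.5 CPM for all genes that fell, rose or were tested. Long intergenic noncoding RNAs numbered 110 among the rises and 28 among the falls, of 739 tested. Antisense RNAs numbered 71 and 21 of 819 tested, and processed pseudogenes 14 and 36 of 272. Over all genes 13.8% rose and 13.4% fell, so these counts follow in part the number tested in each class. In a list of 61 very large scaffold proteins and enzymes 21 fell and 3 rose, but the median was -0.03 in the first set and -0.30 in the second, and 9 fell without untreated replicate 3 and 40 without treated replicate 1. Length and level are linked to the power of the test, and their part in these counts was not tested.

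The 2 sets share no library. Each has 3 libraries, with 1 library in one group and 1 residual degree of freedom, so a call within a set assumes that the lone library varies like the pair of the other group. In the first set alone 1020 genes rose (6.22% of those tested there) and 1195 fell (7.29%). Of those that fell, 1118 of 1195 had the same sign in the second set and 899 were called lower there (75.2%), while 6 were called higher; of those that rose, 977 had the same sign, 772 were called higher (75.7%) and 5 lower. The second set gave 2347 rises (13.8%) and 2490 falls (14.6%), of which 32.9% and 36.1% were called in the first. The log2 fold changes of the sets had a Pearson correlation of 0.591 across 16011 genes, and of 0.496 across the 15754 outside the interferon list; genes are not independent replicates.

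The response differed between the sets for 173 genes (1.1% of those tested; 0.597% with the higher and 0.501% with the lower response in the second set), with 2733 at an unadjusted p under 0.05. They included 67 of the rises and 38 of the falls, among the latter PRKDC, HERPUD1 and CENPE. Among the rises named above STAT2, HLA-B, TAP1, CDKN1A and CXCL1 also differed between the sets, and among the falls LPP. Since each set has a group with 1 library, a difference between sets rests on single libraries, and the cause of the sets is not given in the labels.

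**Figure D5:**
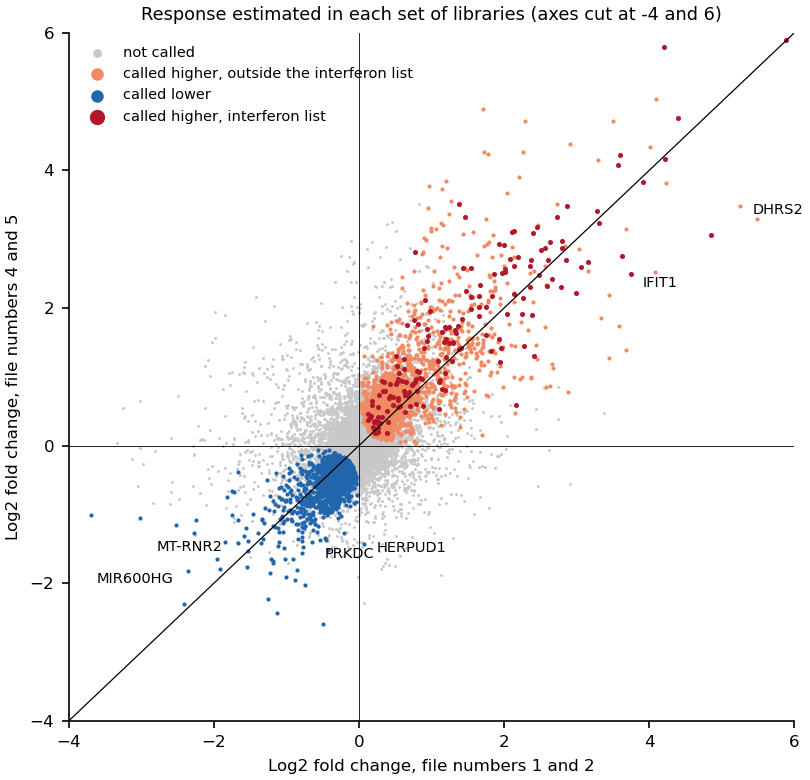
Log2 fold change estimated from file numbers 4 and 5 (vertical axis) against that from file numbers 1 and 2 (horizontal axis), 1 point per gene, coloured by the call in all 6 libraries, with the line of equality. Called genes other than HERPUD1 lie in the quadrants of equal sign, and 1996 of 2118 falls lie within 1 unit of 0 in both sets.

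The responses of the lines overlapped in part. HCC38 had 1052 rises (5.81% of 18121 genes tested) and 861 falls (4.75%). Of the genes that fell in MDA-MB-231, 263 fell in HCC38, which is 12.4% of the MDA-MB-231 falls and 30.5% of the HCC38 falls, and 79 rose there. Of the rises 422 were shared, 19.5% and 40.1% of the respective lists, and 59 fell there. The difference between the responses, tested in all 12 libraries, was called for 2218 genes (12.2%; 5.77% with MDA-MB-231 above and 6.47% with it below): 828 of the MDA-MB-231 falls, 827 of them further down in MDA-MB-231, and 754 of the rises, 731 of them further up. The falls and rises were called from the same MDA-MB-231 libraries that enter this difference, so its direction follows in part from that choice. Without the set term 637 genes differed, and without MDA-MB-231 untreated replicate 3, 821 did.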

How the data were processed

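RNA-seq of 6 MDA-MB-231 libraries, 3 untreated and 3 given interferon-β, was analysed, with 6 HCC38 libraries for comparison. The deposited counts are whole reads per gene for 61552 genes, made by the authors, and the deposited FPKM values come from the same libraries. Per the submitters' processing notes, which give no roles, the build was GRCh38.p13 and the tools were HTSeq 2.0.2, Cufflinks 2.2.1 and fastp 0.23.2. The aligner and the strand setting are not stated there. The totals per library were 28757721 to 43588773 counts.

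Genes were filtered with filterByExpr (minimum count 10, minimum total 15), scaled by TMM and tested with edgeR 4.0.16 (R 4.3.3) by the quasi-likelihood test with treatment and set, and p-values were adjusted by Benjamini-Hochberg over all genes tested and called under 0.05. Fold changes carry edgeR's prior count of 0.125. The difference between the lines was a contrast in all 12 libraries. Alternatives were the set term, scaling, filter, DESeq2 1.42.0, limma 3.58.1 (voom, and log2 of FPKM plus 1 or 0.1, a scale that understates the change of low genes), replicate block, single sets, a test against a 1.5-fold change, and leaving out each library.

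The text names the 14 largest falls, the 14 largest rises outside and the 6 largest inside the interferon list (called, at least 5 CPM in the higher group, ordered alike in both sets and changed in the same direction in mean FPKM), up to 3 called members a direction of each list with at least 1 CPM, and fixed anchors, of which SLFN11 did not pass the filter. Some genes of these lists are not reported here. Genes outside this rule, among them JAK1, TYK2, EEF1A1, IFIT1, IFIT3, CDH1, EREG, TGFA, HBEGF, MT-ND6 and the SNHG genes, were chosen after their values were seen. The members and the 43 lists were chosen with earlier results of these data known. Promoters and starts come from RefSeq (GRCh38.p14), matched by symbol for 11203 tested genes.

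Tested on simulated counts for the MDA-MB-231 comparison (15755 genes), the procedure recovered 7 of 50 genes changed 1.25-fold, 37 of 50 at 1.5-fold, 48 of 50 at 2-fold and 48 of 50 at 4-fold, with 7 unchanged genes called.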

Additional observations from a re-analysis of the deposited data

Results flagged for a closer look

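Of 44 genes named as the largest falls, the largest rises or anchors, 31 responded differently in MDA-MB-231 and HCC38, against 12.2% of all genes tested. This was a test of the difference itself (edgeR's quasi-likelihood test in all 12 libraries, adjusted p under 0.05). Other named genes also differed, among them CANX, LARS1 and EGF, and are not listed here. Most of the 44 were chosen for a large fold change in the same MDA-MB-231 libraries. That choice favours a difference, so their share is no independent support. Values are the log2 response of MDA-MB-231 minus that of HCC38, and line and medium cannot be told apart in them.

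Among interferon-stimulated genes and signalling factors the response was further up in MDA-MB-231, by 5.97 for OAS1, 5.81 for HSH2D, 5.63 for IFITM1, 5.59 for IFI44L, 5.56 for TRIM22, 5.07 for MX1, 4.38 for IFI27, 2.08 for IRF9 and 0.72 for STAT2. Untreated means of OAS1, HSH2D, IFITM1, IFI44L, TRIM22 and IFI27 were higher in HCC38, so these differences hold unlike starting levels. OAS1 went from 55.1 to 228 CPM there and from 1.10 to 299 CPM in MDA-MB-231. TRIM22 went from 15.4 to 64.3 CPM and from 0.422 to 88.6 CPM, and IFITM1 from 15.4 to 62.6 CPM and from 1.27 to 250 CPM. Among rises outside that list the difference was 3.00 for RASGRP3, 2.35 for GLP2R, 2.12 for MDK, 2.07 for CCR1, 1.91 for COL15A1, 1.90 for REC8, 1.55 for H2AC6, 1.37 for PSMB8-AS1 and 1.22 for TRANK1. Among falls it was -1.02 for MIR600HG, -0.95 for MT-RNR2, -0.73 for LINC01963, -0.72 for PRKDC, -0.72 for DANCR, -0.71 for TNFRSF10D, -0.60 for NUDT3, -0.55 for MT-RNR1, -0.45 for LPP and -0.41 for CHEK1. The pseudogenes, whose reads may come from their parent genes, gave -1.42 for RPL7P9 and -1.40 for RPS3AP26. NT5E, which rose in HCC38 and was not called in MDA-MB-231, gave -3.03.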

How the results depend on the processing

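The count of 4287 called genes rested on the set term: it was 1035 without it, 2272 in all 12 libraries without it, 2215 in the first set alone, 820 on log2(FPKM + 1), 717 on log2(FPKM + 0.1) and 325 against a 1.5-fold change. With 1 library left out at a time it ranged from 2184 (without untreated replicate 3) to 5300 (without treated replicate 1), and it was 2799 without treated replicate 2. The 2218 genes that differed between the lines became 637 without the set term, and ranged from 821 (without MDA-MB-231 untreated replicate 3) to 2899 (without HCC38 treated replicate 2). The cause of these changes was not tested, apart from the smaller number of libraries in the last ones. The difference between sets was fitted in 1 way.

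The replicate numbers of the titles did not pair the samples: deviations of same-numbered libraries correlated by 0.345, -0.344 and 0.31, and untreated replicate 2 correlated best with treated replicate 1 (0.398). With the replicate block in place of the set term 1098 genes were called, and 532 differed between the lines.

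Of 2540 values for 127 named genes over 20 alternatives, 2249 kept direction and side of the threshold, 268 were no longer called, 12 became called and 11 turned: HERPUD1 to 0.067 in the first set (-1.42 to 0.049 with 1 library left out, the highest without untreated replicate 3), IFNAR1 to 0.000163 in the first set, NT5E to 0.081 in the second set (-0.34 to 0.086 with 1 library left out, the highest without treated replicate 1), and HBEGF, not called and close to 0, to -0.0203 and -0.0215 without the set term in 6 and 12 libraries, -0.0240 with the replicate block and -0.0723 in the second set (-0.0675 to 0.0874 with 1 library left out, the lowest without treated replicate 1 and also below 0 without untreated replicate 2). Scaling to library totals moved the median of all genes to 0.10 from 0.01, so small falls are relative to the scaling. With 3 residual degrees of freedom, and 7 of 50 simulated 1.25-fold changes recovered, small changes were often not detectable.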
